A study of Mus musculus with 12 samples.

Results

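The cholesterol synthesis enzymes described here were 8 genes of the pathway, chosen by symbol: Hmgcs1, Idi1, Fdps, Fdft1, Sqle, Lss, Cyp51 and Dhcr7. All 8 were found among the 23183 symbols listed for every library, and all 8 were among the 13243 genes tested. Kidney cortex was taken on day 7 after unilateral ureteral obstruction (UUO), an operation that blocks the outflow of a single kidney and leads to tubular injury and fibrosis. Male C57BL/6N mice, 6 to 7 weeks old, were wild-type (Acot12+/+) or lacked acyl-CoA thioesterase 12 in every tissue (Acot12−/−, a germline mutation made with an RNA-guided endonuclease). The obstructed kidney (UUO) and the contralateral kidney (CL) of each genotype gave 4 groups of 3 libraries. The CL kidney shared its mouse with an obstructed kidney, and no kidney of an unoperated mouse was analysed here. The labels number the libraries but name no animals, so p-values measure the spread between these libraries.

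Cholesterol is built from acetyl-CoA in the cytosol and the endoplasmic reticulum. The mevalonate arm makes the isoprene units, the middle of the pathway joins them into squalene, and the last arm closes the rings of lanosterol and trims it to cholesterol. The genes of the pathway are switched on together by sterol regulatory element-binding protein 2 when sterols run low. ACOT12 hydrolyses acetyl-CoA to acetate and CoA in the cytosol, and acetyl-CoA is the substrate of the pathway. The kidney cortex consists largely of proximal tubules, which take up filtered protein and burn fatty acids. In bulk cortex, fewer cells of a type and less RNA per cell cannot be told apart.

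Upstream sequence was matched by symbol to RefSeq for 5 of the 8 enzymes, namely Hmgcs1, Idi1, Cyp51, Lss and Dhcr7. Of these, 4 are shown because Hmgcs1, Idi1 and Cyp51 had the largest differences between UUO and CL kidneys, and Lss was the remaining enzyme called in Acot12−/− mice. Each run holds the 250 bases before the annotated start on GRCm38.p6, written 5′ to 3′ on the strand of the gene. The windows are chr13:119690101-119690350 (+ strand) for Hmgcs1, chr13:8885356-8885605 (+ strand) for Idi1, chr5:4104698-4104947 (− strand) for Cyp51 and chr10:76531355-76531604 (+ strand) for Lss. Capitals mark matches, on either strand, to TCACNCCAC (a sterol regulatory element type), CCAAT (the box read by NF-Y) and GGGCGG (a GC box read by Sp1).
Hmgcs1: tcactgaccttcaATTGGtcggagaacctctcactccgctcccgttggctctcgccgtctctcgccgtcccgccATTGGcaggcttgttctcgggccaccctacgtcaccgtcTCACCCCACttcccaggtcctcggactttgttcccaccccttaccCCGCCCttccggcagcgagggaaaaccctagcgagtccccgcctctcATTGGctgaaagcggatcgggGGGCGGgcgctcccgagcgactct
Idi1: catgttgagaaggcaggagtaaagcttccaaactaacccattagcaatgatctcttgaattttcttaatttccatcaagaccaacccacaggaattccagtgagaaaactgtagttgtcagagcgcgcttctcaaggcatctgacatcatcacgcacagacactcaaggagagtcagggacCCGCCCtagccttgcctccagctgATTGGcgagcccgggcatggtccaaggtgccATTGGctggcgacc
Cyp51: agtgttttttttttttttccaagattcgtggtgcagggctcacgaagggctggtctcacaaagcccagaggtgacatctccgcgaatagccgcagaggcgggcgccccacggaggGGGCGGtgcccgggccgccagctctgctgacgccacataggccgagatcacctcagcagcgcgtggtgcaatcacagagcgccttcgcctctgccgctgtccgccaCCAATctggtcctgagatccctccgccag
Lss: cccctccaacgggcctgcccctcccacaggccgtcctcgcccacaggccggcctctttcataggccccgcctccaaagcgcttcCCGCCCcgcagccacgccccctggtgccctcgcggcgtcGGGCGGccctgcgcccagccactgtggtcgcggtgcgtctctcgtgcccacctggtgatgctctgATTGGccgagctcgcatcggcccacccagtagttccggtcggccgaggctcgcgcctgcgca

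The sterol regulatory element type was found once among the 5 enzymes, in Hmgcs1, 137 bases before the start as TCACCCCAC. It was present in 1.05% of 32851 upstream windows of this length, and its shorter form CACNCCAC, which overlaps it, in 5.29%. Among the 5 enzymes the shorter form was also found in Hmgcs1 alone. No other form of the sterol regulatory element was searched, so its absence from the other windows is not shown. A CCAAT box was found in 5 of the 7 windows of these enzymes, against 33.8% of all windows, and in all 5 enzymes, against 37.5% of 27025 genes. Hmgcs1 held 3 of them, at 237, 176 and 45 bases before the start, Idi1 held 2, at 45 and 14 bases, Cyp51 held 1 at 29 bases and Lss held 1 at 62 bases. A GC box was found in 6 of the 7 windows, against 32.7% of all windows, and in all 5 enzymes, against 35.4% of genes. Dhcr7 has 3 annotated starts: the window of the first held a GC box, that of the second held no match and that of the third held both boxes. These matches describe letters in the windows, and binding was not measured. The annotation used for gene positions below starts Idi1 at 8885501 and Cyp51 at 4104746, inside their windows. By that annotation the boxes of Idi1 and the CCAAT box of Cyp51 lie within the gene.

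**Figure D1:**
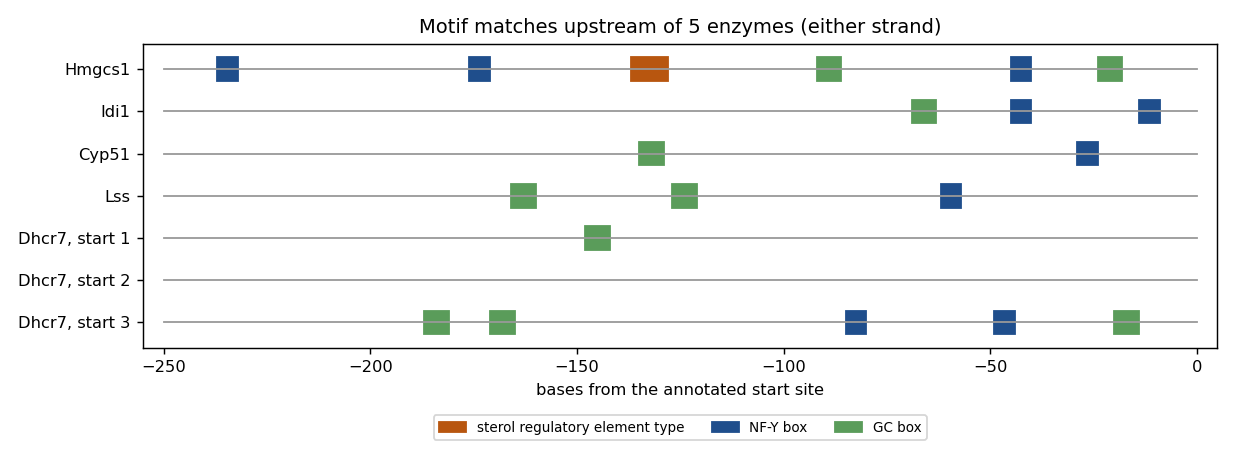
Matches to the 3 motifs in the 250 bases before the annotated start of 5 enzymes (horizontal axis, bases from the start; each line is 1 start). The orange block of the sterol regulatory element type appears in Hmgcs1 alone, and blocks of the other two motifs appear in every gene.

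Levels are given as FPKM, which corrects fragments for transcript length and sequencing depth, so that genes of different length can be compared. Depth was not listed and was estimated from the steps between low FPKM values, which gave 12300000 to 13800000 fragments in CL and 21200000 to 23000000 in UUO libraries of Acot12+/+ mice, and 14000000 to 16200000 and 18500000 to 21800000 in those of Acot12−/− mice. At these depths the least abundant enzyme, Lss, rested on an estimated 163 to 257 fragments per library and Hmgcs1 on 3344 to 15886. Acot12 itself, the targeted gene, stood at 73.8, 52.7 and 78.1 FPKM in Acot12+/+ CL and at 9.14, 9.01 and 6.80 FPKM in Acot12−/− CL kidneys, and at 9.98, 16.7 and 21.2 FPKM against 3.28, 1.80 and 3.86 FPKM in UUO kidneys. The groups did not overlap on either side, and Acot12 was lower in the libraries labelled Acot12−/−. Replicate 2 of Acot12−/− CL stood apart from its group on the second principal component of all genes (−52.3, against 22.2 and 33.0), so results that rest on it are also given without it.

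In Acot12+/+ CL cortex the enzymes fell into an abundant and a scarcer set. Hmgcs1 averaged 221 ± 37.9 FPKM (SD, n = 3), Idi1 146 ± 48.0 FPKM and Cyp51 114 ± 38.9 FPKM. Sqle (34.3 ± 4.4 FPKM) and Fdps (30.6 ± 0.686 FPKM) followed, and Fdft1 (8.96 to 11.3 FPKM), Dhcr7 (6.14 ± 1.25 FPKM) and Lss (2.90 ± 0.211 FPKM) were lowest. Among neighbours in this order, Idi1 and Cyp51 overlapped between libraries, as did Sqle and Fdps, and the others did not. Hmgcs1, Idi1 and Cyp51 together made up 80.9% to 86.7% of the summed FPKM of the 8 enzymes there, and 75.9% to 86.9% in Acot12−/− CL.

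After UUO that share was 52.1% to 62.6% in Acot12+/+ and 52.1% to 62.5% in Acot12−/− kidneys. The summed level of the other 5 enzymes lay at 79.7 to 89.9 FPKM in CL and 81.6 to 85.6 FPKM in UUO kidneys of Acot12+/+ mice, and at 78.8 to 120 and 68.4 to 80.9 FPKM in those of Acot12−/− mice. Hmgcs1 stayed the most abundant enzyme in every group. Sqle came next in the UUO kidneys of both genotypes, while Fdps, Idi1, Cyp51 and Fdft1 followed with neighbours that overlapped.

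**Figure D2:**
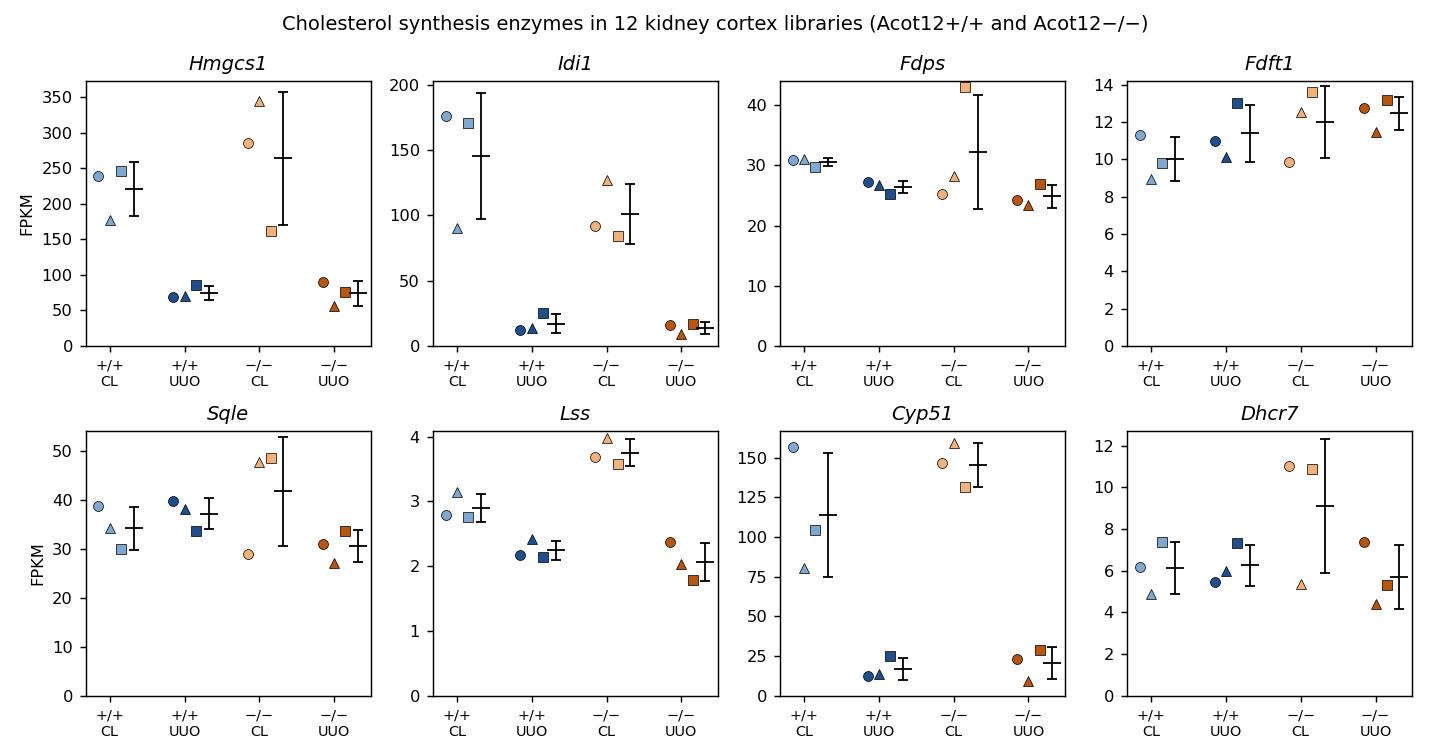
FPKM of the 8 enzymes (vertical axes, from 0) in the 4 groups; circles, triangles and squares are libraries numbered 1, 2 and 3, and bars beside them are the mean and SD of 3 libraries. Hmgcs1, Idi1 and Cyp51 are lower in all UUO libraries than in any CL library, while Fdft1, Sqle and Dhcr7 overlap between the kidneys.

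The first comparison asks how the pathway differs between the obstructed and the contralateral kidney of wild-type mice. In UUO kidneys 3 enzymes were lower, none was higher, and 5 did not pass the test. Idi1 and Cyp51 fell most and Hmgcs1 less. Differences below are on the log2(FPKM + 1) scale, from limma over all genes with Benjamini-Hochberg adjustment, and a gene is called at an adjusted p under 0.05. The 3 of 8 enzymes called lower stand beside 47.5% of all genes tested called in this comparison, 23.9% lower and 23.6% higher. The median difference of the 8 enzymes was −0.23, beside 0.01 for all genes.

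Hmgcs1 encodes the cytosolic HMG-CoA synthase, which joins acetyl-CoA to acetoacetyl-CoA at the start of the mevalonate arm. Its level was 240, 177 and 245 FPKM in Acot12+/+ CL and 69.1, 69.8 and 86.0 FPKM in Acot12+/+ UUO libraries. Every CL library was above every UUO library, and the mean was 2.95-fold higher in CL. The difference was −1.54 (SE 0.27, 95% interval −2.13 to −0.94, limma adjusted p = 0.000722).

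Idi1 encodes isopentenyl-diphosphate isomerase, which makes the dimethylallyl unit that starts each isoprenoid chain. It stood at 176, 90.3 and 171 FPKM in Acot12+/+ CL and at 11.9, 13.9 and 25.6 FPKM in UUO kidneys. The lowest CL library was still far above the highest UUO library, and the means differed 8.50-fold. The difference was −3.03 (SE 0.34, 95% interval −3.76 to −2.29, limma adjusted p = 3.77e-05), which placed Idi1 56th from the lowest of the 13243 genes tested. Fdps encodes farnesyl diphosphate synthase, which extends these units to the precursor shared by sterols, ubiquinone, dolichol and prenylated proteins. Its CL libraries held 30.9, 31.0 and 29.8 FPKM and its UUO libraries 27.2, 26.7 and 25.3 FPKM. The groups did not overlap, yet the difference of −0.20 (95% interval −0.59 to 0.18) missed the threshold (limma adjusted p = 0.36).

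Fdft1 encodes squalene synthase, the first enzyme committed to sterols. It held 11.3, 8.96 and 9.81 FPKM in Acot12+/+ CL and 11, 10.1 and 13 FPKM in UUO kidneys. Sqle encodes squalene epoxidase, which adds the oxygen needed for ring closure. It held 38.8, 34.2 and 29.9 FPKM in CL and 39.8, 38.1 and 33.7 FPKM in UUO kidneys. Both genes overlapped between the kidneys, with differences of 0.17 (95% interval −0.17 to 0.50, limma adjusted p = 0.392) for Fdft1 and 0.12 (−0.31 to 0.55, limma adjusted p = 0.644) for Sqle. Lss encodes lanosterol synthase, which closes the rings. It stood at 2.79, 3.14 and 2.77 FPKM in CL and at 2.17, 2.42 and 2.14 FPKM in UUO libraries. Although no UUO library reached a CL library, its difference of −0.27 (95% interval −0.52 to −0.01) was not called (limma adjusted p = 0.0802).

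Cyp51 encodes lanosterol 14-alpha-demethylase, the first enzyme to act on lanosterol. Its libraries held 156, 80.2 and 105 FPKM in Acot12+/+ CL and 12.2, 13.9 and 25.0 FPKM in UUO kidneys. The groups were well separated and their means differed 6.69-fold. The difference was −2.68 (SE 0.38, 95% interval −3.51 to −1.86, limma adjusted p = 0.000161), 109th from the lowest of all genes. Dhcr7 encodes 7-dehydrocholesterol reductase, the last enzyme of the pathway. It held 6.18, 4.87 and 7.38 FPKM in CL and 5.43, 5.97 and 7.34 FPKM in UUO kidneys, which overlapped, with a difference of 0.03 (95% interval −0.52 to 0.58, limma adjusted p = 0.937).

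Including Fdps and Lss, 5 of the 8 enzymes had every Acot12+/+ UUO library below every CL library, as had 35.8% of all genes, while 35.5% had every UUO library above. Total FPKM was larger in CL (799670 to 977981) than in UUO libraries (491078 to 560621). The tubule marker Kap entered these totals at 0, 190000 and 0 FPKM in CL and at 7270, 13800 and 26900 FPKM in UUO libraries. In Acot12−/− CL libraries Kap was listed at 101000, 129000 and 0 FPKM. Its part in the scaling to equal totals was not tested. When total FPKM was made equal in all libraries, the median of all genes moved to 0.62, and the calls over all genes went from 3129 higher and 3161 lower to 7645 higher and 1040 lower. Under that scaling Idi1 (−2.32), Cyp51 (−1.98) and Hmgcs1 (−0.81) were still called lower, Fdft1 (0.84), Sqle (0.84), Dhcr7 (0.66) and Fdps (0.51) were called higher close to that median, and Lss stood at 0.27 (adjusted p = 0.165, not called).

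In Acot12−/− mice the same question gave 4 enzymes lower in UUO kidneys, none higher and 4 not called. These 4 of 8 stand beside 53.7% of all genes called, 27.2% lower and 26.6% higher. Cyp51, Idi1, Hmgcs1 and Lss had every UUO library below every CL library, as had 27.6% of all genes, while 27.8% had every UUO library above. The median difference of the 8 enzymes was −0.60, beside −0.01 for all genes.

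Hmgcs1 stood at 286, 344 and 161 FPKM in Acot12−/− CL and at 90.4, 56.1 and 76.1 FPKM in Acot12−/− UUO libraries. Its mean was 3.56-fold higher in CL, and the difference was −1.77 (SE 0.27, 95% interval −2.37 to −1.18, limma adjusted p = 0.000189). The spread between its CL libraries was wide, and the lowest of them, replicate 3, was still above all UUO libraries.

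Idi1 held 91.6, 127 and 84.4 FPKM in Acot12−/− CL and 15.8, 8.96 and 16.9 FPKM in UUO kidneys. The means differed 7.27-fold with no overlap, a difference of −2.80 (SE 0.34, 95% interval −3.53 to −2.07, limma adjusted p = 3.32e-05). Cyp51 held 146, 159 and 131 FPKM in CL and 23.3, 9.31 and 28.8 FPKM in UUO kidneys, again without overlap. Its means differed 7.11-fold and the difference was −2.90 (SE 0.38, 95% interval −3.73 to −2.07, limma adjusted p = 5.86e-05). Cyp51 was 75th and Idi1 92nd from the lowest of all genes.

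Lss was at 3.69, 3.98 and 3.58 FPKM in Acot12−/− CL and at 2.38, 2.03 and 1.79 FPKM in UUO kidneys. The groups did not overlap, the means differed 1.82-fold and the difference was −0.64 (SE 0.12, 95% interval −0.89 to −0.38, limma adjusted p = 0.000674). With total FPKM made equal, which moved the median of all genes to 0.46 and the calls over all genes from 3518 higher and 3596 lower to 6294 higher and 1545 lower, Lss was at −0.23 and was no longer called (adjusted p = 0.243). Under that scaling Hmgcs1, Idi1 and Cyp51 kept their calls and Fdft1 was called higher, at 0.56.

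Among the enzymes that were not called, Dhcr7 came closest. It held 11, 5.37 and 10.9 FPKM in Acot12−/− CL and 7.38, 4.39 and 5.31 FPKM in UUO kidneys. Replicate 2 was the lowest of the CL group and lay within the range of the UUO kidneys. The difference was −0.56 (95% interval −1.11 to −0.01, limma adjusted p = 0.0815). With the kidneys of 1 number taken as a block, the pairing described with the processing, it was the same −0.56 and was called (limma adjusted p = 0.0188), and without replicate 2 of Acot12−/− CL it was −0.86 (limma adjusted p = 0.00316). It was also called without replicate 1 of Acot12−/− UUO (−0.73), and in 3 of the 20 alternatives in all. Without replicate 2 of Acot12−/− CL, 5 enzymes were called lower, in a fit that called 3904 of 13214 genes higher and 4484 lower.

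Sqle held 29.0, 47.7 and 48.7 FPKM in Acot12−/− CL and 31.0, 27.1 and 33.6 FPKM in UUO kidneys. Fdps held 25.3, 28.2 and 43.0 FPKM in CL and 24.3, 23.4 and 27 FPKM in UUO kidneys. In both genes the CL range reached down into the UUO range through replicate 1 of Acot12−/− CL. The differences of −0.41 (95% interval −0.84 to 0.02, limma adjusted p = 0.102) for Sqle and −0.32 (−0.71 to 0.06, limma adjusted p = 0.138) for Fdps were not called. Without that replicate, Sqle at −0.64 and Fdps at −0.47 were called, and 6 enzymes in all. That fit called 3303 of 13217 genes higher and 3347 lower. Fdft1 held 9.88, 12.5 and 13.6 FPKM in CL and 12.8, 11.5 and 13.2 FPKM in UUO kidneys, a difference of 0.06 (−0.28 to 0.39, limma adjusted p = 0.771).

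The kidneys of each number were also compared as pairs, although the labels name no animals and the pairing of Acot12+/+ pair 1 is not shown. Idi1 was 14.8, 6.49 and 6.67 times higher in CL than in UUO in the Acot12+/+ pairs 1, 2 and 3, and 5.78, 14.2 and 4.99 times higher in the Acot12−/− pairs. For Cyp51 the ratios were 12.8, 5.78 and 4.19 in Acot12+/+ and 6.28, 17.1 and 4.56 in Acot12−/− pairs. Those of Hmgcs1 were 3.47, 2.54 and 2.85 in Acot12+/+ and 3.17, 6.14 and 2.12 in Acot12−/− pairs. All 3 genes were thus lower in the obstructed kidney of every pair, with the largest ratios in pair 1 of Acot12+/+ and pair 2 of Acot12−/−.

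**Figure D3:**
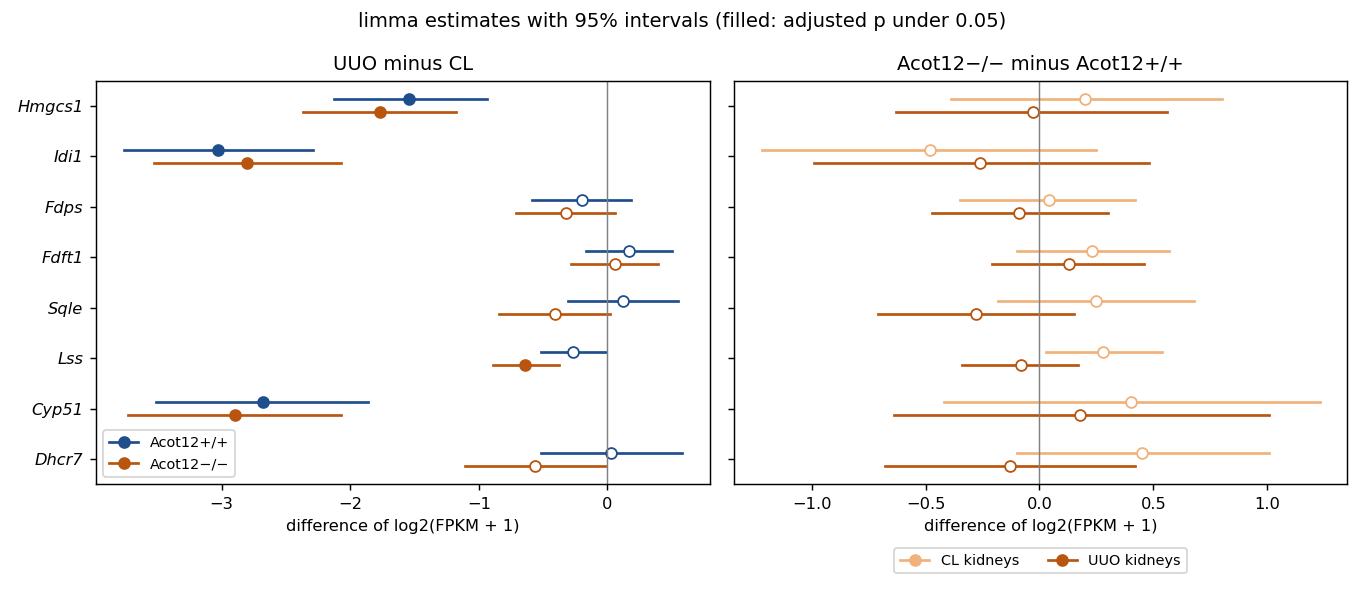
Differences of log2(FPKM + 1) with 95% intervals from limma, for UUO minus CL within each genotype (left) and Acot12−/− minus Acot12+/+ within each kidney (right); filled points are called at an adjusted p under 0.05. On the left Idi1 and Cyp51 lie between −2.68 and −3.03 in both genotypes; on the right no point is filled.

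The next comparison asks whether the loss of Acot12 altered these enzymes. In CL kidneys none of the 8 enzymes was called between genotypes, where 4.48% of all genes were called (limma), 1.12% higher and 3.36% lower in Acot12−/−, and 1 of the 8, Lss, had an unadjusted p under 0.05. Lss was at 3.58 to 3.98 FPKM in Acot12−/− and at 2.77 to 3.14 FPKM in Acot12+/+ kidneys, with no overlap, as was the case for 8.60% of all genes with Acot12−/− higher and 9.73% with it lower. Its difference was 0.28 (95% interval 0.03 to 0.54, unadjusted p = 0.0314, limma adjusted p = 0.228). Estimates were above 0 for 7 of the 8, with a median of 0.24, beside 0.01 for all genes.

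The exception was Idi1, at −0.48 (95% interval −1.22 to 0.25, limma adjusted p = 0.532). Cyp51 differed by 0.40 (95% interval −0.42 to 1.23, limma adjusted p = 0.671) and Dhcr7 by 0.45 (−0.10 to 1.01, limma adjusted p = 0.409). These intervals include changes above 2-fold for Idi1, Cyp51 and Dhcr7, so equal levels are not shown. Without replicate 2 of Acot12−/− CL, Dhcr7 was called higher in Acot12−/− kidneys, at 0.76 (limma adjusted p = 0.0232), and Hmgcs1 moved from 0.20 to −0.02. That fit called many more genes, 1536 higher and 1382 lower of 13214, against 148 higher and 445 lower with every library.

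In UUO kidneys none of the 8 enzymes was called between genotypes, by limma, and none had an unadjusted p under 0.05, where 0.0151% of all genes were called. Hmgcs1 averaged 74.9 ± 9.58 FPKM in Acot12+/+ and 74.2 ± 17.2 FPKM in Acot12−/− UUO kidneys (SD, n = 3). Idi1 averaged 17.1 ± 7.39 and 13.9 ± 4.32 FPKM, and Cyp51 17.0 ± 6.94 and 20.5 ± 10.1 FPKM. These groups overlapped. Sqle was the one enzyme whose groups did not overlap, at 33.7 to 39.8 FPKM in Acot12+/+ and 27.1 to 33.6 FPKM in Acot12−/− kidneys, as was the case for 6.48% of all genes with Acot12−/− lower and 5.5% with it higher. Its difference was −0.28 (95% interval −0.71 to 0.15, limma adjusted p = 1.0).

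Whether the obstructed kidney differed from the CL kidney by unequal amounts in the 2 genotypes was tested as an interaction. None of the 8 enzymes was called, where 0.106% of all genes were (limma). Lss alone had an unadjusted p under 0.05, with an interaction of −0.37 (95% interval −0.73 to −0.01, unadjusted p = 0.0452, limma adjusted p = 0.462). The call of Lss in Acot12−/− and its absence in Acot12+/+ mice is therefore not shown to be a difference between genotypes. For Idi1 the interaction was 0.23 (−0.81 to 1.27), for Cyp51 −0.22 (−1.39 to 0.95) and for Dhcr7 −0.59 (−1.37 to 0.19). The comparisons within kidneys, within genotypes and of the interaction share libraries and are not independent of each other.

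Further enzymes of the pathway, 11 genes by symbol, stood as follows. In each genotype 9 were lower in UUO kidneys, none was higher and 2 were not called, with medians of −0.85 in Acot12+/+ and −1.23 in Acot12−/− mice. Of all genes tested, 47.5% were called in Acot12+/+ (23.9% lower) and 53.7% in Acot12−/− mice (27.2% lower). With total FPKM made equal, 0 were called in Acot12+/+ (median −0.26) and 5 in Acot12−/− mice (median −0.69), all lower. Of 13478 genes, that scaling called 1040 lower and 7645 higher in Acot12+/+, and 1545 lower and 6294 higher in Acot12−/− mice. Without replicate 1 of Acot12+/+ CL, 4 were called in Acot12+/+ mice, where 2478 of 13206 genes were called higher and 2523 lower.

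In the mevalonate arm, Acat2, which supplies acetoacetyl-CoA, went from 45.6 ± 6.00 to 19.8 ± 1.60 FPKM in Acot12+/+ and from 64.1 ± 1.46 to 22.4 ± 6.59 FPKM in Acot12−/− mice (SD, n = 3). Its differences were −1.16 (limma adjusted p = 0.000559) and −1.52 (limma adjusted p = 5.91e-05). Mvd, which decarboxylates mevalonate diphosphate, differed by −1.31 in both genotypes, near the threshold (limma adjusted p = 0.047 in Acot12+/+ and 0.0423 in Acot12−/−), and lost its call when any one of several libraries was left out. The mevalonate kinase Mvk (−0.49 and −0.42) and the phosphomevalonate kinase Pmvk (−0.52 and −0.13) were not called.

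After lanosterol, Nsdhl, a sterol dehydrogenase that helps remove the methyl groups, differed by −1.30 in Acot12+/+ (limma adjusted p = 0.000666) and −1.83 in Acot12−/− mice (limma adjusted p = 4.19e-05). Msmo1 (−1.19 and −1.06) and Hsd17b7 (−0.85 and −1.27), which act in the same demethylation, were also called in both, as were the sterol reductases Tm7sf2 (−0.71 and −0.99) and Lbr (−0.59 and −0.77) and the isomerase Ebp (−1.02 and −1.23). Sc5d, the lathosterol oxidase that acts just before Dhcr7, differed by −0.52 in Acot12+/+ and −1.40 in Acot12−/− mice. It was the only one of the 11 called between genotypes in CL kidneys, at 13.5 ± 3.39 FPKM in Acot12+/+ and 23.7 ± 3.81 FPKM in Acot12−/− (difference 0.78, limma adjusted p = 0.0303). That call was kept in 13 of the 20 alternatives and lost in 7: with equal totals, with only the groups compared in the fit, and without replicate 2 or 3 of Acot12+/+ CL, replicate 1 or 2 of Acot12+/+ UUO or replicate 1 of Acot12−/− CL. Without replicate 2 of Acot12−/− CL, 2 of the 11 were called higher, in a fit that called 1536 of 13214 genes higher and 1382 lower.

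**Figure D4:**
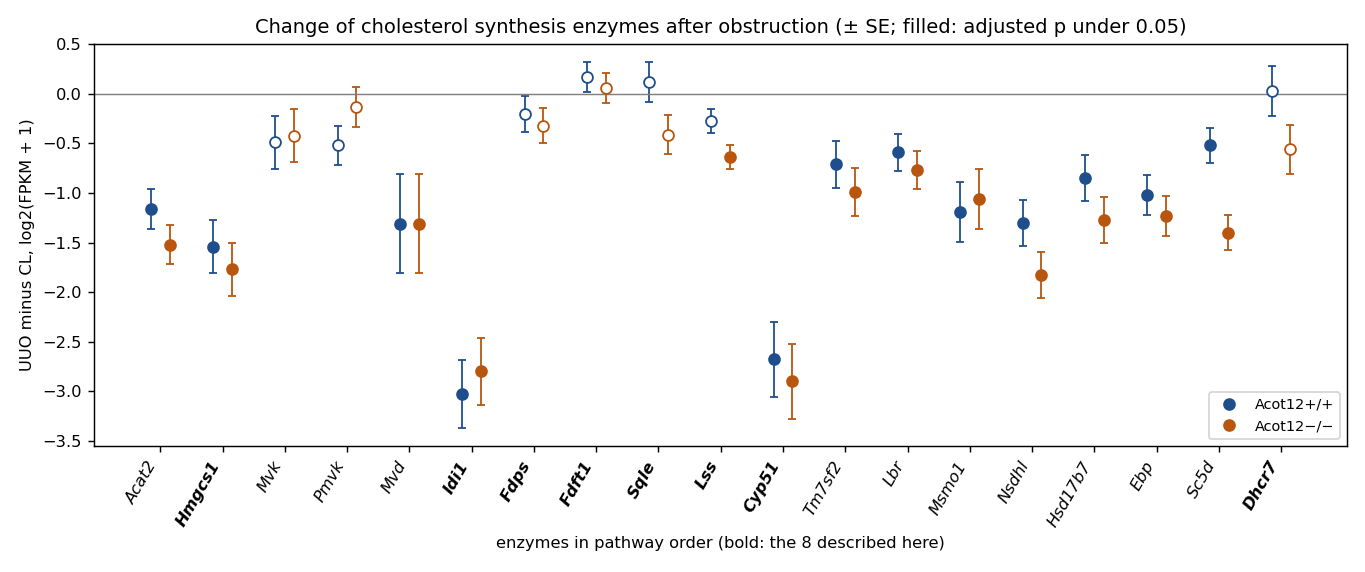
UUO minus CL differences of log2(FPKM + 1) with their SE for 19 enzymes in pathway order (8 described here in bold), in Acot12+/+ (blue) and Acot12−/− mice (orange); filled points are called. Idi1 and Cyp51 lie lowest, near −3, and the run from Fdps to Lss lies between −0.64 and 0.17.

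Along the pathway, Fdps, Fdft1, Sqle and Lss lie between Idi1 and Cyp51. In Acot12+/+ mice these 4 ranged from −0.27 to 0.17, beside −3.03 for Idi1 and −2.68 for Cyp51. In Acot12−/− mice they ranged from −0.64 to 0.06, with Lss lowest, beside −2.80 for Idi1 and −2.90 for Cyp51.

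Of 10 regulators of sterol sensing, 1 was called higher and 3 lower in Acot12+/+ UUO kidneys, and 3 lower in Acot12−/− UUO kidneys. These 4 and 3 of 10 do not exceed the shares of all genes called, 47.5% and 53.7%. With a library left out the counts were 2 to 6 in each genotype. They were 2 in Acot12+/+ mice without replicate 1 of Acot12+/+ UUO, and 6 in both without replicate 2 of Acot12−/− CL. That last fit called 4080 of 13214 genes higher and 4097 lower in Acot12+/+, and 3904 higher and 4484 lower in Acot12−/− mice. With equal totals they were 4 higher and 1 lower in Acot12+/+, and 2 higher and 1 lower in Acot12−/− mice. Insig1, which holds the sterol sensor in the endoplasmic reticulum and is itself a target of the pathway's regulator, went from 28.6 ± 3.24 to 9.11 ± 2.75 FPKM in Acot12+/+ and from 34.4 ± 14.3 to 9.36 ± 1.42 FPKM in Acot12−/− mice. Its differences were −1.58 (limma adjusted p = 0.000426) and −1.71 (limma adjusted p = 0.00017). Srebf2, which encodes the regulator itself, was at 10.6 ± 1.36 and 15.8 ± 1.12 FPKM in Acot12+/+ CL and UUO kidneys and was not called (0.54, limma adjusted p = 0.0862), nor was it in Acot12−/− mice (0.11, limma adjusted p = 0.73). Scap, the escort that carries it to the Golgi, was not called in either genotype (−0.12 and −0.41).

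Nr1h3, the oxysterol receptor LXR alpha, was called lower in both genotypes (−1.07 and −0.80, the latter at limma adjusted p = 0.0471). In Acot12−/− mice it was called in 7 of the 20 alternatives, from −1.21 to −0.28, and in 2 of the 12 that left out a library. Insig2 was called lower in both as well (−0.51 and −0.76), and Mylip, a ubiquitin ligase induced by oxysterols, was called higher in Acot12+/+ mice (0.57). Of Insig1, Nr1h3 and Insig2, only Insig1 kept its calls with equal totals, and Insig2 was at 0.19 in Acot12+/+ mice.

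Fdps feeds branches other than sterols. Of 9 genes of these isoprenoid branches, 5 were lower and 1 higher in Acot12+/+, and 4 lower and 1 higher in Acot12−/− UUO kidneys, beside 47.5% and 53.7% of all genes called. Pdss1 (−1.63 and −1.80) and Pdss2 (−0.69 and −1.43), which build the side chain of ubiquinone, and Coq2 (−1.05 and −1.10), which attaches it, were among those called lower in both. Nus1, a subunit of the enzyme that makes dolichol, differed by −1.55 and −1.91. With equal totals 2 were higher and 2 lower in Acot12+/+, and 1 higher and 4 lower in Acot12−/− mice.

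Of 13 genes of sterol transport and storage, 7 were higher and 3 lower in Acot12+/+, and 5 higher and 5 lower in Acot12−/− UUO kidneys, beside the same shares of all genes. Abca1 (1.40 and 1.85) and Abcg1 (0.91 and 1.54), which export cholesterol, and Scarb1 (1.09 and 1.39), a lipoprotein receptor, were called higher in both. Stard4, a carrier that moves cholesterol between membranes, differed by −1.16 and −1.68. The list came to 9 higher and 0 lower with equal totals in Acot12+/+, and to 8 higher and 3 lower in Acot12−/− mice.

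Of 9 genes of fatty acid synthesis, 4 and 5 were lower and none higher, again beside 47.5% and 53.7% of all genes. They include the malic enzyme Me1 (−1.79 and −1.97) and the acetyl-CoA carboxylase Acacb (−1.11 and −0.95). The acetyl-CoA synthetase Acss2, which makes acetyl-CoA from acetate, was also called lower in both (−1.78 and −2.03). The desaturase Scd1 was called lower in Acot12−/− mice (−1.51) and just missed the threshold in Acot12+/+ mice (−1.25, limma adjusted p = 0.0538). With a library left out the counts were 3 to 7 in Acot12+/+ and 4 to 7 in Acot12−/− mice, both 7 (1 higher, 6 lower) without replicate 2 of Acot12−/− CL. The all-gene counts of that fit are given with the regulators. With equal totals 2 were higher and 3 lower in Acot12+/+, and 1 higher and 3 lower in Acot12−/− mice.

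Between genotypes, the one gene called of these 4 lists was Lipa, the lysosomal lipase that frees cholesterol from its esters, higher in Acot12−/− CL (0.90, limma adjusted p = 0.0372). That call was lost under 10 of the 20 alternatives. Without replicate 2 of Acot12−/− CL, 5 of the sterol regulators, 2 of the isoprenoid and 2 of the transport genes were called higher in Acot12−/− CL. In that fit 4 of the regulators were also called for the interaction, all negative. Over all 13214 genes it called 1536 higher and 1382 lower in Acot12−/− CL, against 148 and 445 with every library. For the interaction it called 513 genes positive and 386 negative, against 14 and 0.

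Markers of the cortex's cells moved with the same comparisons. The proximal tubule markers Lrp2, Cubn, Slc34a1, Slc5a2, Slc22a6, Slc22a8 and Slc13a3 summed to 1150, 1310 and 1790 FPKM in Acot12+/+ CL and 246, 295 and 520 FPKM in Acot12+/+ UUO libraries. In Acot12−/− mice they summed to 3230, 1480 and 2500 FPKM in CL and 677, 130 and 537 FPKM in UUO libraries. Their mean sum was thus 4.01-fold higher in CL in Acot12+/+ and 5.36-fold higher in Acot12−/− mice. Of the 7, 6 were called lower in Acot12+/+ (median −1.93) and all 7 in Acot12−/− UUO kidneys (median −2.51). An eighth marker, Kap, was left out of this sum after its values were seen, because it was listed at 0 in 3 CL libraries beside 101000 to 190000 FPKM in the other 3.

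Set against 100 FPKM of this sum, Idi1 of Acot12+/+ mice stood at 6.89 to 15.3 in CL and at 4.72 to 4.92 in UUO libraries, which did not overlap, and at 2.83 to 8.58 and 2.34 to 6.87 in Acot12−/− mice, which did. Cyp51 stood at 5.85 to 13.6 and 4.71 to 4.95 in Acot12+/+, and at 4.53 to 10.7 and 3.44 to 7.14 in Acot12−/− mice. Hmgcs1 stood at 13.5 to 20.8 and 16.5 to 28 in Acot12+/+, and at 6.44 to 23.2 and 13.3 to 43.0 in Acot12−/− mice, so that on this measure it was not lower in UUO kidneys. The part of the tubule markers in the differences of the enzymes was not tested.

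**Figure D5:**
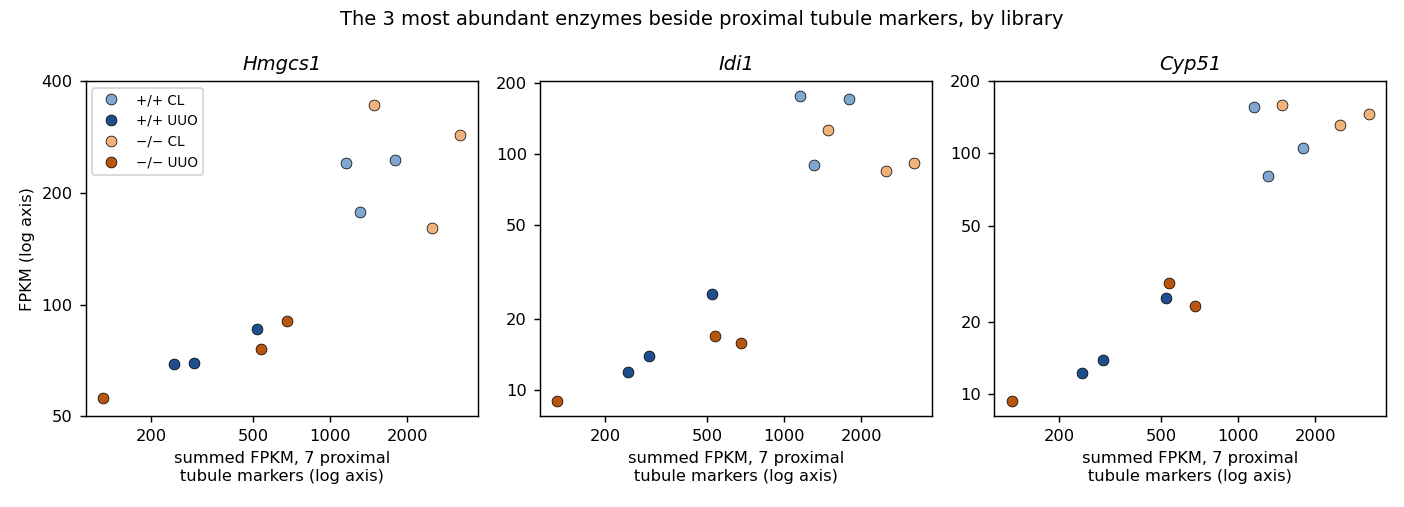
FPKM of Hmgcs1, Idi1 and Cyp51 (vertical, log axis) against the summed FPKM of 7 proximal tubule markers (horizontal, log axis), 1 point per library, coloured by group. UUO libraries lie at 130 to 677 FPKM of markers and CL libraries at 1150 to 3230, and the 3 enzymes are lower in every UUO library.

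Markers of other cells moved too. The injured tubule list (Havcr1, Lcn2, Krt20, Vcam1, Sox9) summed to 10.2 to 52.3 FPKM in CL and 1280 to 1320 FPKM in UUO kidneys of Acot12+/+ mice, and to 5.62 to 42.0 and 1100 to 1350 FPKM in those of Acot12−/− mice. Macrophage markers summed to 157 to 181 and 649 to 784 FPKM in Acot12+/+, and to 54.8 to 120 and 705 to 936 FPKM in Acot12−/− mice. Fibroblast markers summed to 135 to 174 and 335 to 487 FPKM in Acot12+/+, and to 46.6 to 105 and 332 to 474 FPKM in Acot12−/− mice. Loop and distal tubule markers went the other way, at 1810 to 3040 and 365 to 917 FPKM in Acot12+/+ and 1650 to 2210 and 385 to 731 FPKM in Acot12−/− mice. Markers of the adrenal cortex, a steroid-making gland beside the kidney, summed to at most 1.22 FPKM in any library. In CL kidneys, the proximal tubule markers were above 0 between genotypes in 7 of 7 genes (median 0.63, none called by limma, 2 with an unadjusted p under 0.05), while 4 of 7 macrophage, 3 of 3 lymphocyte, 3 of 4 endothelial and 2 of 6 fibroblast markers tested were called lower in Acot12−/− mice. Their part in the genotype differences was not tested.

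With the mean of each group taken out, Idi1 and Cyp51 correlated at r = 0.885 over the 12 libraries, Hmgcs1 and Idi1 at 0.747 and Hmgcs1 and Cyp51 at 0.628 (Pearson). Fdft1 was at 0.629 with Idi1, 0.627 with Sqle and 0.609 with Cyp51, close to the last of these. Fdps was at 0.675 with Sqle and 0.531 with Fdft1. Hmgcs1 and Fdft1 were at 0.088, Hmgcs1 and Fdps at −0.672 and Cyp51 and Fdps at −0.00425. These values describe libraries that differ in cell markers within a group. The 7 proximal tubule markers summed to 1480 to 3230 FPKM in Acot12−/− CL and 130 to 677 FPKM in Acot12−/− UUO libraries. The part of cell make-up in these correlations was not tested.

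The mean profile of the 8 enzymes over the 12 libraries was most like that of Cth (r = 0.996), an enzyme of cysteine synthesis, Fuca2 (0.995), a fucosidase, Fam107a (0.991), Ndufaf7 (0.991) and Snx7 (0.991), out of 13235 other genes. With group means taken out, Ces2e (0.991), Cth (0.987), Fuca2 (0.978), Tmx2 (0.965) and Mdh1 (0.964) came first. None of these is a sterol synthesis enzyme. Within the lists above, Me1 was nearest, at 0.903 with group means taken out, and Srebf2 was at −0.19. The mean profile centred each gene without scaling it, so Idi1, Cyp51 and Hmgcs1, with the widest changes, weigh most in it. The 8 enzymes did not share one profile. Over the 12 libraries Idi1 correlated at 0.963 with Cyp51, 0.954 with Hmgcs1 and 0.779 with Lss. It was at 0.557 with Fdps, 0.369 with Dhcr7, 0.277 with Sqle and −0.252 with Fdft1.

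By position in GRCm38, Fdft1 overlaps Ctsb on the opposite strand, a gene at 112 to 218 FPKM, and Cyp51 overlaps Akap9 on the opposite strand, at 3.32 to 8.13 FPKM. Whether strand was used in counting is not given in the sources used here, so reads of these pairs may not be fully separated. Hmgcs1 (chr13:119690379-119708260) and Idi1 (chr13:8885501-8892451) lie on the same chromosome as Acot12 (chr13:91741512-91786148), the gene mutated in Acot12−/− mice, and Cyp51 lies at chr5:4081145-4104746. Neither Hmgcs1 nor Idi1 was called between genotypes.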

How the data were processed

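Total RNA of kidney cortex was made into libraries with a directional kit and sequenced on a NovaSeq instrument. Trimming, mapping and normalization were done by a service provider for the authors. The deposited files hold 1 FPKM value per gene symbol and library, a unit inferred from the values, since no header names it. The submitters' processing notes name edgeR and the mm10 build, and the aligner and annotation are not given in the sources used here. FPKM are not counts, so no count model was used.

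Values were tested as log2(FPKM + 1) with limma 3.58.1 in R 4.3.3, with all 4 groups in 1 model, a variance trend and Benjamini-Hochberg adjustment over 13243 genes with at least 1 FPKM in at least 3 libraries. Genes listed at 0 in a library beside at least 10 FPKM in its group were left out. The script was tested on simulated data. The fold change understates the change of low genes on this scale. FPKM as deposited were compared without rescaling. Depth was estimated from the steps of low FPKM values and an effective transcript length, and fragments per gene from its longest transcript, so both are estimates, and no counting intervals are given.

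The members and the lists were chosen with earlier results of these data known. Text names every member, every further synthesis enzyme reported (1 gene of that list is not reported here), called genes with the 3 largest changes of each other list per contrast, Acot12 and the 5 genes most alike. Further named genes (Srebf2, Scap, and the overlapping genes Ctsb and Akap9) were chosen after their values were seen. Alternatives were another pseudocount (0.1), no filter, median-ratio size factors, equal total FPKM, no variance trend, only the groups compared, genes listed at 0 kept, a replicate block, and each of the 12 libraries left out in turn. Running them for the other lists was added after seeing the data. Replicate numbers were taken to pair the kidneys within a genotype, although the labels name no animals. Deviations from group means correlated at 0.134, 0.364 and 0.335 for same-numbered Acot12+/+ kidneys and at 0.322, 0.186 and 0.318 for Acot12−/− kidneys. Kidneys of different numbers correlated at −0.363 to 0.139 in Acot12+/+ and at −0.177 to −0.0748 in Acot12−/− mice. Pair 1 of Acot12+/+ (0.134) lay within the first of these ranges, so its pairing is not shown. The block was the number within a genotype. Between genotypes the numbers did not pair (−0.303 to 0.392). Upstream sequences are from RefSeq, GRCm38.p6.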

Additional observations from a re-analysis of the deposited data

How the results depend on the processing

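Idi1, Cyp51 and Hmgcs1 were called lower after UUO in both genotypes under every alternative run. The count of called enzymes in Acot12+/+ mice went from 3 to 7 with equal total FPKM (4 higher, 3 lower). It was 5 with only the groups compared in the fit, and 3 to 4 with each library left out in turn. Over all genes, 3129 of 13243 were called higher and 3161 lower in the fit reported above. Equal totals called 7645 of 13478 higher and 1040 lower. With only the groups compared, 4119 of 12872 were higher and 4293 lower. With a library left out, the fewest were 2466 higher and 2445 lower, without replicate 1 of Acot12+/+ UUO. The most were 4080 higher and 4097 lower, without replicate 2 of Acot12−/− CL. In Acot12−/− mice the count of called enzymes went from 4 to 5 with the replicate block, which changed no other call among the 8 enzymes. It was 4 to 6 with libraries left out. Over all 13243 genes, 3518 were called higher and 3596 lower in the fit reported above, and 3614 and 3831 with the block. With a library left out, the fewest were 2889 higher and 2927 lower, without replicate 2 of Acot12−/− UUO. The most were 3904 higher and 4484 lower, without replicate 2 of Acot12−/− CL. Between genotypes in CL kidneys the count of called enzymes was 0 to 1 with libraries left out. The 1 was Dhcr7 at 0.76 without replicate 2 of Acot12−/− CL. The fit without that library called 1536 genes higher and 1382 lower, against 148 and 445 with it. The count was 0 in UUO kidneys and for the interaction under every alternative run.

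With equal total FPKM, estimates changed sign for Fdps (0.51) and Lss (0.27) in Acot12+/+ and Fdps (0.20) and Sqle (0.13) in Acot12−/− mice after UUO, and for Fdft1 between genotypes in UUO kidneys (−0.03). The same scaling turned Lbr (0.09), Sc5d (0.15), Insig2 (0.19), Fnta (0.08), Lipa (0.05) and Acly (0.10) in Acot12+/+ and Osbp (0.05) in Acot12−/− mice. After UUO these values lay below the all-gene median of 0.62 in Acot12+/+ and of 0.46 in Acot12−/− mice.

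With a library left out, small estimates that were not called also ranged over 0. After UUO, Dhcr7 in Acot12+/+ mice ranged from −0.11 to 0.15 and Fdft1 in Acot12−/− mice from −0.07 to 0.15. Between genotypes in CL kidneys, Hmgcs1 ranged from −0.02 to 0.52 and Fdps from −0.19 to 0.18. In UUO kidneys, Hmgcs1 ranged from −0.19 to 0.15, Idi1 from −0.46 to 0.06, Cyp51 from −0.12 to 0.65 and Dhcr7 from −0.31 to 0.01. For the interaction, Cyp51 ranged from −0.52 to 0.24 and Fdps from −0.27 to 0.10. The call of Acot12 between genotypes in UUO kidneys (−2.07, limma adjusted p = 0.0459) was lost under 17 of 20 alternatives, all lower in Acot12−/−. The cause of these changes was not tested. Lss, at an estimated 163 to 257 fragments per library, and Dhcr7, at 155 to 456, rest on the fewest fragments of the 8.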
